A study of Capra hircus with 20 samples.

Results

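The study labels its cultured goat cells as preadipocytes and adipocytes of the intramuscular and the subcutaneous depot. The genes of the integrins and laminins were followed in these cultures before and after induction to store lipid. They were taken by symbol from the mRNA expression table, as every gene named ITGA or ITGB (integrin alpha and beta subunits) or LAMA, LAMB or LAMC (laminin alpha, beta and gamma chains) followed by its number or letter. This gave 36 of the 20587 genes, namely 17 integrin alpha, 8 integrin beta, 5 laminin alpha, 3 laminin beta and 3 laminin gamma genes. The values of all transcripts with the same symbol were added, which joined 75 of the 43766 transcripts listed.

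Strand-specific RNA-seq was carried out on 20 libraries in 4 groups of 5. All cells were primary cells at passage 3 from 7-day-old male Jianzhou Daer goats, and no transgene or edited allele was named. Intramuscular preadipocytes (IMPA) came from the longissimus dorsi muscle and subcutaneous preadipocytes (SPA) from subcutaneous fat, both at day 0, and the adipocytes of each depot (IMA and SA) were the same kinds of cells after 3 days in oleic acid induction medium. The cells were released with collagenase and no sort was named, the goat behind each replicate number was not named, and p-values therefore measure the spread between these libraries.

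Integrins are receptors at the cell surface, each made of 1 alpha and 1 beta chain, that hold a cell to its matrix and signal through adaptor proteins at their inner ends. Laminins are matrix ligands, each made of 1 alpha, 1 beta and 1 gamma chain, and they form the basement membrane that wraps both fat cells and muscle fibres. Which alpha chain is made sets much of what an integrin binds, and growing fat cells are known to exchange a fibronectin-rich matrix for one of laminin and collagen IV.

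Expression is given as FPKM, fragments scaled by the length of the transcript and the number of mapped fragments, so levels can be set beside each other between genes. Differences are differences of mean log2(FPKM + 1), given with their standard error (SE), and they understate the change of genes near 0. A gene was called where its limma p-value, adjusted over the 11432 genes whose mean across all libraries reached 1 FPKM, was under 0.05. Of the 36 genes 21 passed this filter, and 7 of those 21 had a group mean under 1 FPKM in at least one group, so a gene could pass through the group where it was high.

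The labelled cell types were set against their markers. Myogenin, desmin and the other skeletal muscle markers in the table, 12 of the 13 listed, summed to 3334 to 3823 FPKM in IMPA and 11837 to 12596 FPKM in IMA, against 7.01 to 23.7 FPKM in SPA and 7.50 to 9.73 FPKM in SA. PPARG, the main transcription factor of fat cells, reached at most 1.26 FPKM in any library, and ADIPOQ, the fat cell hormone adiponectin, at most 0.596 FPKM. The adipocyte marker sum, most of it PLIN2, a lipid droplet coat protein, still went from 47.1 to 79.2 FPKM in IMPA to 140 to 201 FPKM in IMA and from 261 to 276 FPKM in SPA to 388 to 433 FPKM in SA. Of the 4 adipocyte markers tested, PLIN2 and CD36 rose, CEBPA fell and CIDEC was not called in each depot, and 2 were higher and 2 lower in intramuscular cells at both stages. The 8 stromal progenitor and fibroblast markers summed to 2691 to 3082 FPKM in IMPA and 2801 to 2978 FPKM in IMA, against 8550 to 9063 FPKM in SPA and 7341 to 7824 FPKM in SA. In bulk RNA, fewer cells of a type and less RNA per cell cannot be told apart, and the part of the muscle RNA in the results for the intramuscular cells was not tested.

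Markers of vessel cells also differed between the depots. The 7 smooth muscle and pericyte markers summed to 348 to 464 FPKM in IMPA and 273 to 376 FPKM in IMA, against 97.4 to 107 FPKM in SPA and 141 to 155 FPKM in SA, and most of each sum was ACTA2, smooth muscle actin. The 8 endothelial markers summed to 4.87 to 7.35 FPKM in IMPA and 5.24 to 7.74 FPKM in IMA, against 1.67 to 2.04 FPKM in SPA and 1.98 to 2.53 FPKM in SA, most of it ERG. The defining genes MYH11 and RGS5 of the first list and CDH5 and KDR of the second had group means of at most 0.0806, 0.0334, 0.0748 and 0.0125 FPKM. By the alignment statistics given with the study, not analysed here, every IMPA library also had more mapped reads and a larger mapped share than any library of the other groups. The part of these markers and of the mapping in the results was not tested.

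Summed over the genes analysed, intramuscular cells held more integrin message and less laminin message than subcutaneous cells. Single genes of both families went both ways, as given below. The 25 integrin genes summed to 708 ± 43.3 FPKM (SD, n = 5) in IMPA, 661 ± 12.7 FPKM in IMA, 345 ± 39.9 FPKM in SPA and 427 ± 34.4 FPKM in SA. The 11 laminin genes summed to 331 ± 51.7 FPKM in IMPA, 397 ± 18.0 FPKM in IMA, 471 ± 12.0 FPKM in SPA and 471 ± 24.4 FPKM in SA. The libraries of the depots did not overlap in either sum at either stage.

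Different alpha chains led in the 2 depots, whereas ITGB1, LAMA4, LAMB1 and LAMC1 led their classes in all 4 groups among the genes analysed. LAMB2, a further laminin beta chain, was not analysed here, so the beta chain sum is that of LAMB1, LAMB3 and LAMB4. ITGA7, an alpha chain of laminin receptors known from muscle, made up 39.7% ± 3.07 of the summed alpha chain FPKM in IMPA and 39.2% ± 3.10 in IMA. In SPA and SA its share was 0.0511% ± 0.110 and 0.0285% ± 0.0374, and ITGAV, the alpha chain that pairs with several beta chains on matrix proteins with an RGD motif, led with 43.1% ± 1.29 and 49.3% ± 0.754. Among the beta chains ITGB1, the common partner of most alpha chains, held 86.3% ± 1.35 in IMPA, 82.4% ± 0.437 in IMA, 89.7% ± 1.28 in SPA and 90.8% ± 0.766 in SA. LAMA4, the alpha chain of the laminins around blood vessels and fat cells, held 94.2% to 97.2% of the summed laminin alpha chain FPKM as group means, and LAMB1 and LAMC1 held 98.8% to 99.7% and 98.6% to 99.1% of theirs.

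**Figure D1:**
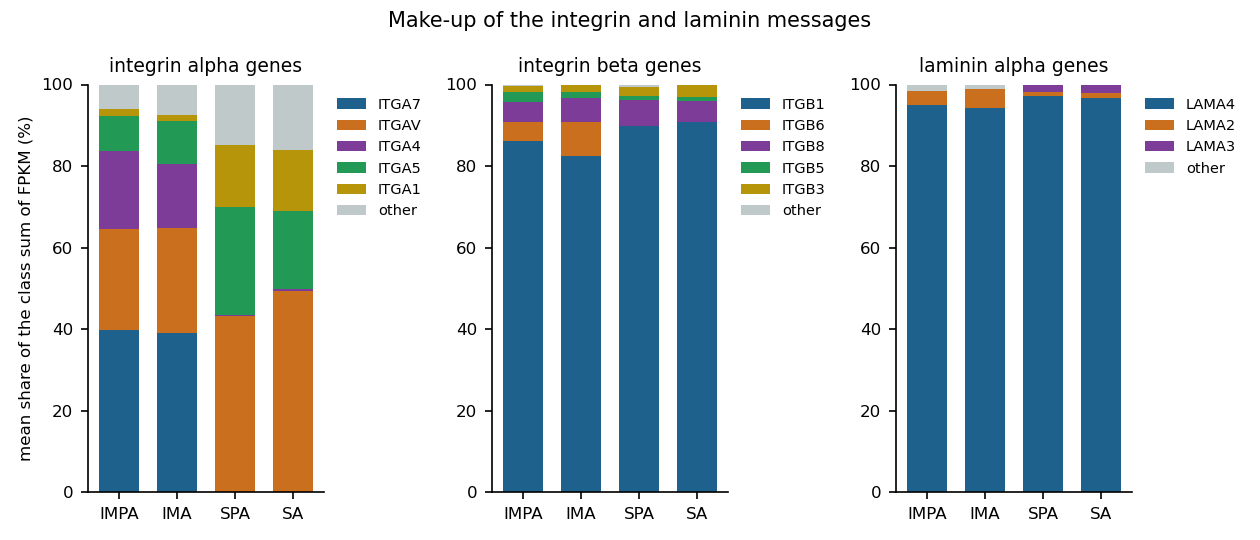
Mean share of each gene in the summed FPKM of its class (vertical axis, %) in the 4 groups (horizontal axis), for integrin alpha, integrin beta and laminin alpha genes, over 5 libraries per group. ITGA7 takes 39.7% of the alpha chain sum in IMPA and almost none in SPA and SA, whereas ITGB1 and LAMA4 take most of their class in every group.

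The depots were compared first at the preadipocyte stage. Of the 21 genes tested, 20 were called between IMPA and SPA (12 higher and 8 lower in IMPA), where 75.1% of all genes tested were called, 42.3% higher and 32.9% lower. The 2 groups did not overlap in 19 of the 21, against 63.4% of all genes tested. A difference of at least 1 on the log2 scale was called for 8 of the 21, against 14.2% of all genes tested, and one of at least 3 for 3 of the 21, against 1.71%. The last 3 were ITGA7, ITGA4 and ITGB6. These, with ITGA8 and LAMA3 among the 8, had means under 1 FPKM in 1 depot and passed the filter only through the other. The same held for LAMB3 and ITGAE, which were called with differences under 1. The depot difference of all these genes is thus tied to how they were admitted. The median difference was 0.37 over the 21 genes and 0.055 over all genes tested. All 5 beta chains tested were higher in IMPA, while 4 of the 6 laminin genes tested were lower.

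After induction 19 of the 21 were called between IMA and SA (12 higher and 7 lower in IMA), where 72.4% of all genes tested were called, 29% higher and 43.4% lower. The groups did not overlap in 18 of the 21, against 58.6% of all genes tested. Both counts include ITGA7, ITGA4, ITGB6, ITGA8, LAMA3, LAMB3 and ITGAE, whose depot difference is again tied to how they were admitted. The median difference was 0.36 over the 21 genes and -0.091 over all genes tested.

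Among the integrin alpha chains, 3 genes were abundant or readily measured in intramuscular cells and near 0 in subcutaneous cells. All 3 passed the filter only through the intramuscular groups. ITGA7 stood at 88.4, 87.3, 107, 90.0 and 106 FPKM in the 5 IMPA libraries and at 83.5, 76.9, 72.5, 89.5 and 90.5 FPKM in IMA. In SPA it was listed at 0.188, 0.00549, 0, 0 and 0 FPKM, and in SA at 0.0210, 0, 0.00709, 0.00624 and 0.0644 FPKM. The library with the highest of these subcutaneous values, SPA replicate 1, was also the one with the highest subcutaneous sum of muscle markers, 23.7 FPKM. The difference was 6.54 (SE 0.073, adjusted p = 2.07e-15) between IMPA and SPA and 6.35 (SE 0.063, adjusted p = 2.69e-18) between IMA and SA.

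ITGA4, whose protein binds VCAM1 and fibronectin, followed the same order at a lower level. It stood at 47.3, 40.6, 48.2, 47.7 and 45.9 FPKM in IMPA and at 30.8, 34.9, 36.2, 30.9 and 30.4 FPKM in IMA. In SPA it was at 0.247, 0.218, 0.326, 0.266 and 0.211 FPKM and in SA at 0.322, 0.510, 0.385, 0.367 and 0.413 FPKM. Every intramuscular library lay far above every subcutaneous one, and the difference was 5.22 (SE 0.052, adjusted p = 7.73e-16) before induction and 4.58 (SE 0.063, adjusted p = 8.60e-17) after it.

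ITGA8, a receptor chain for the matrix protein nephronectin, had means of 4.89 ± 0.890 FPKM in IMPA and 4.48 ± 0.405 FPKM in IMA against 0.0870 ± 0.0212 FPKM in SPA and 0.171 ± 0.0621 FPKM in SA (differences of 2.42 and 2.22, adjusted p = 7.85e-11 and 5.84e-13). NPNT, the gene of nephronectin, showed the same depot order, with 11.1 to 15.5 FPKM in IMPA and 11.4 to 12.5 FPKM in IMA against at most 0.133 FPKM in SPA and 0.315 FPKM in SA.

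ITGA1, the alpha chain of a collagen and laminin receptor, was higher in subcutaneous cells at both stages. It stood at 4.31, 4.03, 3.73, 4.36 and 3.61 FPKM in IMPA and at 12.6, 11.3, 11.6, 11.2 and 10.8 FPKM in SPA. At day 3 it stood at 2.93, 2.78, 4.56, 2.51 and 2.97 FPKM in IMA and at 10.0, 10.7, 10.5, 9.89 and 9.82 FPKM in SA. The depots did not overlap at either stage, and SPA exceeded IMPA 2.86-fold and SA exceeded IMA 3.23-fold (differences of -1.32 and -1.45 for intramuscular minus subcutaneous, adjusted p = 2.61e-10 and 8.65e-09).

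ITGAV averaged 59.8 ± 4.50 FPKM in IMPA and 54.1 ± 2.42 FPKM in IMA against 32.6 ± 1.15 FPKM in SPA and 33.7 ± 0.835 FPKM in SA, with no overlap between the depots at either stage (differences of 0.85 and 0.67, adjusted p = 7.93e-09 and 2.15e-09). ITGA3, a laminin receptor chain, was higher in intramuscular cells by 0.57 and 0.36 (adjusted p = 1.62e-06 and 4.75e-04). ITGAE, which pairs with ITGB7 on E-cadherin, was lower by 0.64 and 0.56 (adjusted p = 2.21e-07 and 0.00113). CDH1, the gene of E-cadherin, went the other way, at 18.0 to 23.4 FPKM in IMPA and 27.8 to 35.1 FPKM in IMA and at most 0.0571 FPKM in the subcutaneous libraries.

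ITGA5, the fibronectin receptor chain, did not differ by call before induction (0.057, 95% interval -0.053 to 0.17, adjusted p = 0.317) and was 0.75 higher in IMA than in SA (adjusted p = 7.24e-07). ITGA2B, the platelet integrin chain, was low in all groups, at 0.841 to 1.87 FPKM, and was lower in IMPA than in SPA by 0.37 (adjusted p = 2.13e-04), with overlapping values in IMA and SA (difference -0.13, adjusted p = 0.110, but -0.36 and 0.00224 with quantile normalization). ITGAX, the leukocyte integrin chain CD11c, was lower in IMPA than in SPA by 1.20 (adjusted p = 2.73e-09) and lower in IMA than in SA by 0.17 (adjusted p = 0.0272). The latter call was lost without IMA replicate 1, SA replicate 1 or SA replicate 2 (adjusted p from 0.0572 to 0.0680).

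**Figure D2:**
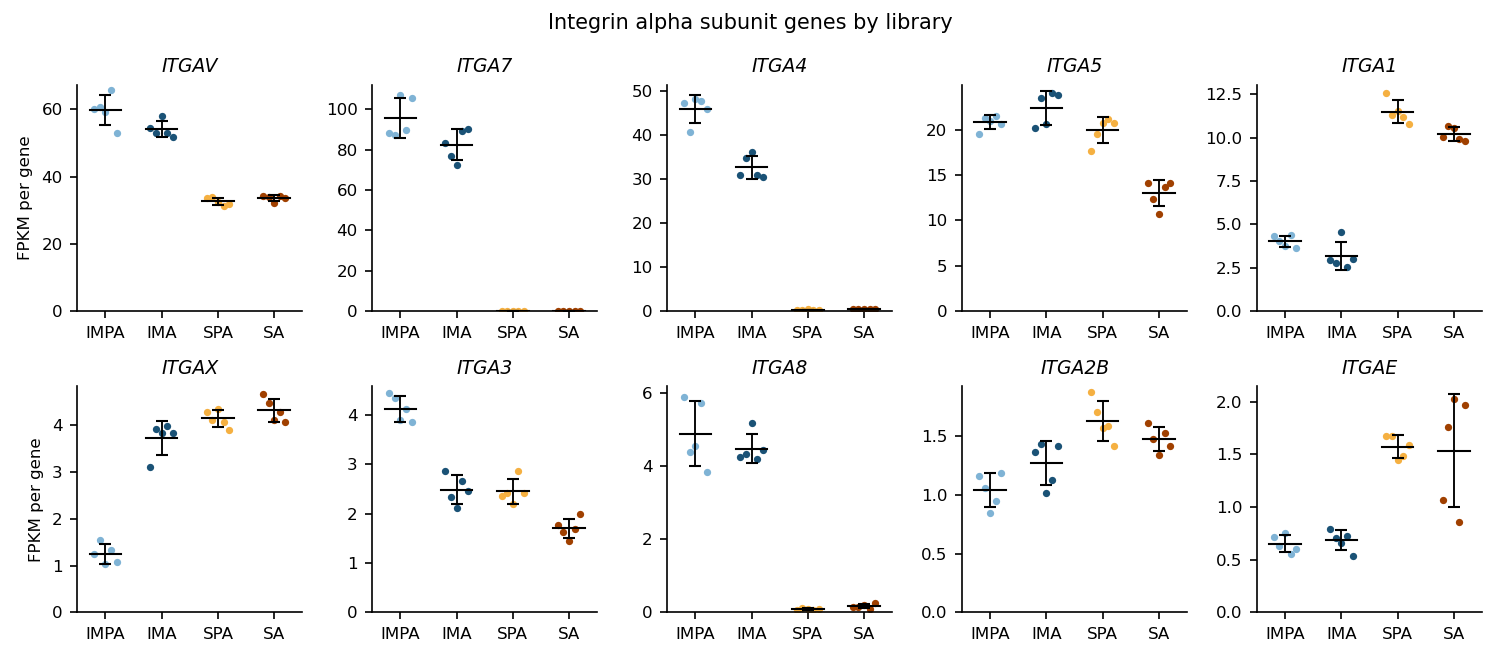
FPKM per gene (vertical axes, linear and starting at 0, each with its own range) of the 10 integrin alpha genes tested, in IMPA, IMA, SPA and SA (horizontal axes). Each point is 1 library, and the bars are the mean ± SD of 5; ITGA7, ITGA4 and ITGA8 lie near 0 in the subcutaneous groups, and ITGA1 lies highest there.

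Among the beta chains, ITGB6, which pairs with ITGAV and is best known from epithelium, was near 0 in every subcutaneous library. It stood at 19.5, 19.0, 23.0, 21.6 and 23.3 FPKM in IMPA and at 35.1, 35.7, 43.2, 37.2 and 37.0 FPKM in IMA. In SPA it was listed at 0.0681, 0, 0.0299, 0.0277 and 0.00597 FPKM and in SA at 0.00854, 0.00405, 0.0199, 0.0214 and 0.0153 FPKM. The difference was 4.44 (SE 0.061, adjusted p = 1.12e-14) before and 5.25 (SE 0.058, adjusted p = 9.12e-18) after induction. Of the 5 epithelial markers, CDH1 alone passed the filter, and it moved with ITGB6 between the depots; its part in the result was not tested.

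ITGB5, another partner of ITGAV, was 3.78-fold higher in IMPA than in SPA and 1.71-fold higher in IMA than in SA (differences of 1.63 and 0.65, adjusted p = 4.51e-11 and 6.46e-07). ITGB1, with the highest level of all 36 genes, averaged 404 ± 37.7 FPKM in IMPA and 242 ± 39.1 FPKM in SPA (difference 0.74, adjusted p = 2.08e-05). After induction it averaged 371 ± 12.2 FPKM in IMA and 326 ± 33.7 FPKM in SA, the groups overlapped, and the difference of 0.19 was still called (adjusted p = 0.0121), though not when all 4 groups shared the estimate of spread (adjusted p = 0.0569), and its main transcript alone was not called (difference 0.099, adjusted p = 0.333). ITGB3, the partner of ITGAV and ITGA2B, was the one gene of the 18 called in both depot comparisons that changed sides, being 0.24 higher in IMPA than in SPA and 0.38 lower in IMA than in SA (adjusted p = 0.00372 and 1.67e-06). Over all genes tested, 82.7% of those called in both depot comparisons kept their direction. ITGB8, a further partner of ITGAV, was higher in intramuscular cells by 0.37 and 0.51 (adjusted p = 0.00226 and 1.68e-05).

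**Figure D3:**
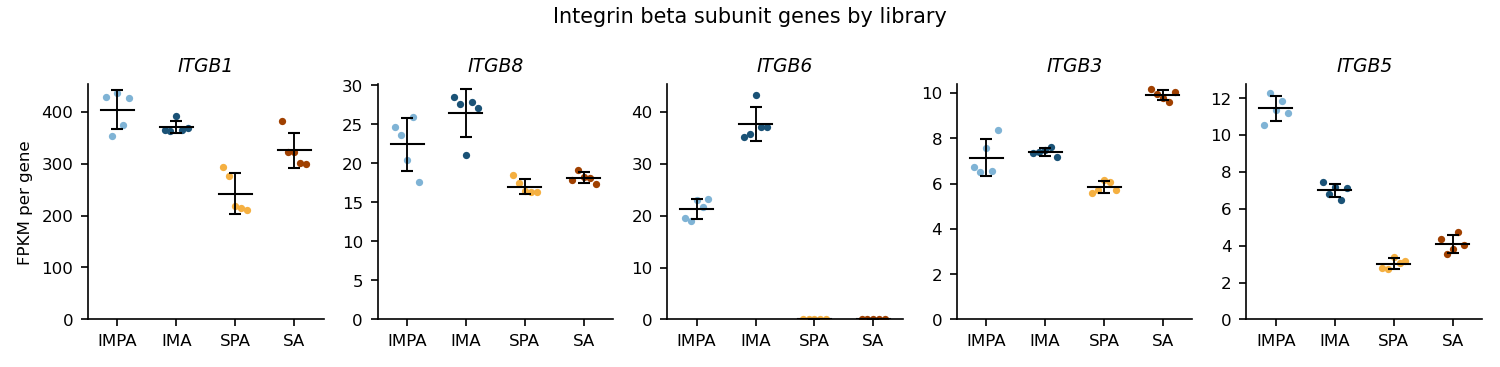
FPKM per gene (vertical axes, linear and starting at 0, each with its own range) of the 5 integrin beta genes tested, in IMPA, IMA, SPA and SA (horizontal axes). Each point is 1 library, and the bars are the mean ± SD of 5; ITGB6 is near 0 in SPA and SA, and ITGB3 is highest in SA.

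Among the ligands, LAMA3, an alpha chain of epithelial laminins, had the widest depot difference. It stood at 0.0614, 0.218, 0.0451, 0.110 and 0.0389 FPKM in IMPA and at 2.58, 3.31, 3.23, 3.34 and 3.25 FPKM in SPA. In IMA it stood at 0.0942, 0.0910, 0.0938, 0.0877 and 0.143 FPKM and in SA at 4.05, 3.84, 3.86, 4.46 and 3.96 FPKM. The depots did not overlap, with differences of -1.92 (SE 0.068, adjusted p = 5.57e-11) and -2.19 (SE 0.057, adjusted p = 1.15e-13) for intramuscular minus subcutaneous.

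LAMB3, the beta chain that joins LAMA3 in epithelial laminin, differed in the opposite direction. Its means were 1.26 ± 0.178 FPKM in IMPA and 2.60 ± 0.207 FPKM in IMA against 0.526 ± 0.0632 FPKM in SPA and 0.746 ± 0.0706 FPKM in SA (differences of 0.57 and 1.04, adjusted p = 3.58e-06 and 1.31e-09). The first of these calls was lost with quantile normalization (difference 0.15, adjusted p = 0.0941).

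LAMA2, the alpha chain of muscle laminin, averaged 4.18 ± 0.285 FPKM in IMPA and 5.97 ± 0.619 FPKM in IMA against 1.83 ± 0.112 FPKM in SPA and 2.45 ± 0.135 FPKM in SA, with no overlap between depots (differences of 0.87 and 1.01, adjusted p = 7.06e-09 and 5.83e-09). LAMA4 was lower in intramuscular cells by 0.63 and 0.71 (adjusted p = 7.92e-04 and 9.30e-11) and LAMC1 by 0.69 and 0.31 (adjusted p = 1.47e-04 and 3.79e-04). LAMB1 was lower in IMPA than in SPA by 0.41 (adjusted p = 6.59e-05), whereas IMA and SA overlapped (difference 0.083, adjusted p = 0.311).

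**Figure D4:**
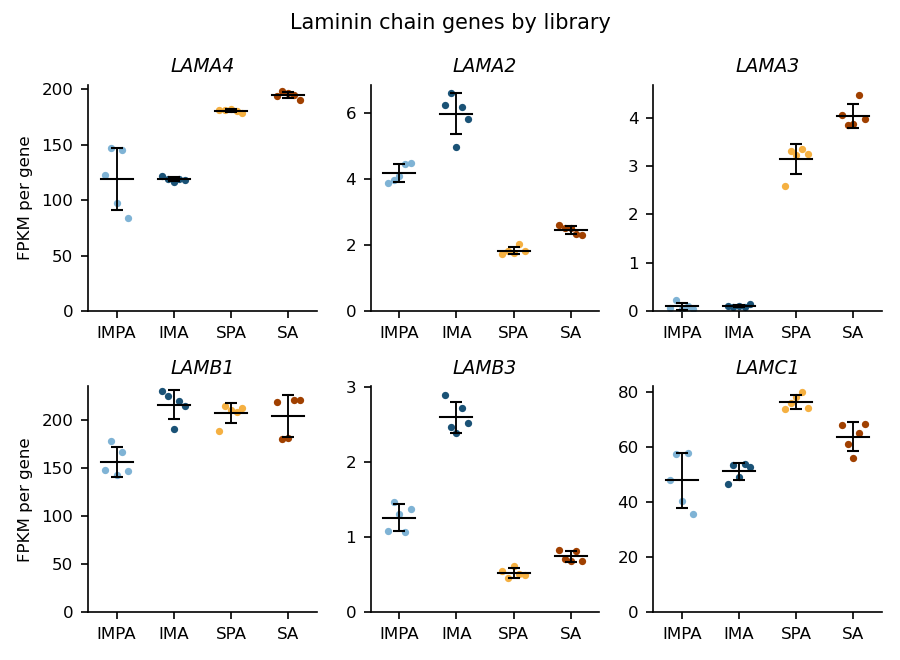
FPKM per gene (vertical axes, linear and starting at 0, each with its own range) of the 6 laminin genes tested, in IMPA, IMA, SPA and SA (horizontal axes). Each point is 1 library, and the bars are the mean ± SD of 5; LAMA3 is near 0 in the intramuscular groups, LAMB3 and LAMA2 are highest in IMA, and LAMA4 and LAMC1 spread widely within IMPA.

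The IMPA libraries themselves spread widely in LAMA4, which stood at 123, 147, 97.3, 145 and 84.3 FPKM there, against 117 to 122 FPKM in IMA. LAMC1 followed with 48.2, 57.4, 40.4, 57.9 and 35.6 FPKM. IMPA replicates 3 and 5 were lowest in both laminin genes and highest in ITGA7. The same 2 libraries had the highest sums of muscle markers in IMPA, 3823 and 3819 FPKM, and the lowest sums of stromal progenitor and fibroblast markers, 2806 and 2691 FPKM. They were also highest in the smooth muscle and pericyte sum, mostly ACTA2 (442 and 464 FPKM, against 348 to 420 FPKM in the others), and the endothelial sum, mostly ERG (6.85 and 7.35 FPKM, against 4.87 to 5.62 FPKM), and lowest in the adipocyte sum (53.1 and 47.1 FPKM, against 63.1 to 79.2 FPKM). By the alignment statistics given with the study they had the largest mapped shares in IMPA as well. The part of these marker sums and of the mapping in the laminin values was not tested.

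The change during induction was then compared within each depot. In intramuscular cells 11 of the 21 genes were called between IMA and IMPA (5 higher and 6 lower in IMA), where 60.1% of all genes tested were called, 19.9% higher and 40.2% lower. The groups did not overlap in 8 of the 21, against 43.5% of all genes tested. All 3 called laminin genes rose (of 6 tested), and 6 of the 8 called integrin genes fell (of 15 tested). With upper-quartile scaling the 8 called genes were 5 higher and 3 lower, as the calls of ITGA1, ITGA7 and ITGAV were lost. The median difference was 0.031 over the 21 genes and -0.085 over all genes tested.

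The rise in ITGAX was the largest among the 21. It stood at 1.25, 1.55, 1.03, 1.33 and 1.08 FPKM in IMPA and at 3.10, 3.92, 3.84, 3.98 and 3.83 FPKM in IMA. All IMA libraries lay above all IMPA libraries, 2.99-fold higher on average (difference 1.08, SE 0.075, adjusted p = 3.08e-07). In SPA and SA the gene was at 3.90 to 4.36 and 4.06 to 4.66 FPKM.

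ITGB2, the only beta chain known to pair with ITGAX, reached at most 0.259 FPKM in any library, and PTPRC, the gene of the pan-leukocyte protein CD45, at most 0.0107 FPKM. The 9 leukocyte markers summed to 4.55 to 8.60 FPKM in IMPA, 10.2 to 13.0 FPKM in IMA, 16.8 to 19.1 FPKM in SPA and 13.9 to 16.4 FPKM in SA. Most of that sum was CD14, whose mean went from 5.91 to 9.93 FPKM between IMPA and IMA, and 4 of the 9 markers stayed under 0.1 FPKM in all libraries. The part of these markers in the ITGAX result was not tested.

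ITGB6 rose 1.77-fold with no overlap between the 5 IMPA and 5 IMA libraries given above (difference 0.79, SE 0.069, adjusted p = 2.07e-06). LAMB3 rose from 1.09, 1.47, 1.31, 1.07 and 1.38 FPKM to 2.89, 2.47, 2.38, 2.72 and 2.51 FPKM (difference 0.67, SE 0.065, adjusted p = 4.50e-06). LAMB1, the main beta chain among the genes analysed, rose from 148, 178, 143, 167 and 146 FPKM to 230, 225, 191, 219 and 214 FPKM (difference 0.46, SE 0.068, adjusted p = 1.11e-04). Neither laminin gene overlapped between the stages. LAMA2 rose 1.43-fold, also without overlap (difference 0.43, SE 0.067, adjusted p = 1.93e-04).

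The largest fall was that of ITGB5, which pairs with ITGAV. ITGB5 fell from 10.5, 12.3, 11.3, 11.8 and 11.2 FPKM to 7.43, 6.80, 7.17, 6.48 and 7.10 FPKM (difference -0.64, SE 0.050, adjusted p = 8.97e-07). ITGA3 was 1.66-fold and ITGA4 1.41-fold higher in IMPA than in IMA (differences of -0.56 and -0.48, adjusted p = 1.77e-05 and 4.06e-05). None of these 3 genes overlapped between the stages.

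ITGA1, ITGA7 and ITGAV fell by 0.29, 0.21 and 0.14 on the log2 scale (adjusted p = 0.0356, 0.0339 and 0.0359), and their groups overlapped. These calls were held in 8, 12 and 8 of 20 alternative settings. The call of ITGA1 was lost without IMPA replicate 1, 2 or 4 or IMA replicate 1, 2, 4 or 5, that of ITGA7 without IMPA replicate 3 or 5 or IMA replicate 1, 2 or 3, and that of ITGAV without any library other than IMPA replicate 5 and IMA replicate 3. ITGB8 was not called (difference 0.23, adjusted p = 0.0781) but was called without IMPA replicate 4 (adjusted p = 0.0407) or IMA replicate 3 (adjusted p = 0.0158). ITGA2B was called without IMA replicate 3 (adjusted p = 0.0274), ITGA5 without IMA replicate 1 (adjusted p = 0.0422) and ITGB1 without IMPA replicate 2 (adjusted p = 0.0130). When all 4 groups shared the estimate of spread, ITGB8 and ITGA2B were called (adjusted p = 0.0237 and 0.0457). ITGA5 was called with quantile normalization (adjusted p = 0.0450), as was ITGB1. The other 6 genes, ITGA8, ITGAE, ITGB3, LAMA3, LAMA4 and LAMC1, were not called. The skeletal muscle markers changed over the same interval: 10 of the 12 rose and 1 fell between IMPA and IMA. The part of these markers in the results was not tested.

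In subcutaneous cells 13 of the 21 genes were called between SA and SPA (9 higher and 4 lower in SA), where 52.1% of all genes tested were called, 26.1% higher and 26% lower. The groups did not overlap in 11 of the 21, against 38.8% of all genes tested. The median difference was 0.047 over the 21 genes. With quantile normalization the split was 5 higher and 4 lower, as the calls of ITGA4, ITGA8, LAMA4 and LAMB3 were lost. All 3 laminin alpha chains tested and 3 of the 5 integrin beta chains tested were called higher.

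ITGB3 changed most clearly. It stood at 5.58, 5.72, 6.15, 6.07 and 5.72 FPKM in SPA and at 10.2, 9.97, 9.77, 9.58 and 10.1 FPKM in SA. The groups were far apart relative to their spread (difference 0.67, SE 0.041, adjusted p = 5.04e-08). In the intramuscular cells ITGB3 was at 6.51 to 8.38 FPKM in IMPA and 7.16 to 7.59 FPKM in IMA (difference 0.049, adjusted p = 0.523).

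ITGA5 fell from 17.6, 19.6, 20.7, 21.2 and 20.7 FPKM in SPA to 14.1, 12.4, 10.7, 13.6 and 14.1 FPKM in SA (difference -0.59, SE 0.075, adjusted p = 3.52e-05). ITGB1, which pairs with it to bind fibronectin, rose from 293, 276, 218, 214 and 210 FPKM to 383, 323, 323, 302 and 300 FPKM (difference 0.44, SE 0.10, adjusted p = 0.00336). Neither gene overlapped between the stages. ITGB5 rose 1.35-fold (difference 0.34, adjusted p = 0.00181), and ITGA3 fell as in the intramuscular cells (difference -0.35, adjusted p = 6.50e-04).

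Among the ligands, LAMA2 and LAMA3 rose by 0.29 and 0.28 (adjusted p = 2.33e-04 and 0.00243) and LAMB3 by 0.19 (adjusted p = 0.00215), each without overlap. LAMC1, the main gamma chain, fell from 73.6, 75.9, 78.0, 79.8 and 74.1 FPKM to 68.0, 60.9, 55.9, 65.0 and 68.4 FPKM (difference -0.26, SE 0.053, adjusted p = 0.00134). LAMA4 rose by 0.11 (adjusted p = 0.00288), from 179 to 182 FPKM in SPA to 191 to 199 FPKM in SA. This call of LAMA4 was lost when each library was rescaled to a common sum (difference 0.039, adjusted p = 0.148) or quantile normalized (0.064, adjusted p = 0.0592), and when all 4 groups shared 1 estimate of the spread (adjusted p = 0.380). ITGA4 and ITGA8 rose by 0.16 and 0.11 (adjusted p = 0.00770 and 0.0384) from SPA means of 0.254 and 0.0870 FPKM, with overlapping groups. The call of ITGA8 was held in 8 of 21 alternative settings and was lost without SPA replicate 1, 3, 4 or 5 or SA replicate 2, 3 or 5. ITGA1 fell by 0.16 without overlap (adjusted p = 0.0132), a call lost when all 4 groups shared the estimate of spread (adjusted p = 0.131). ITGA2B, ITGA7, ITGAE, ITGAV, ITGAX, ITGB6, ITGB8 and LAMB1 were not called, though ITGB8 was called without SPA replicate 1 (adjusted p = 0.0315).

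**Figure D5:**
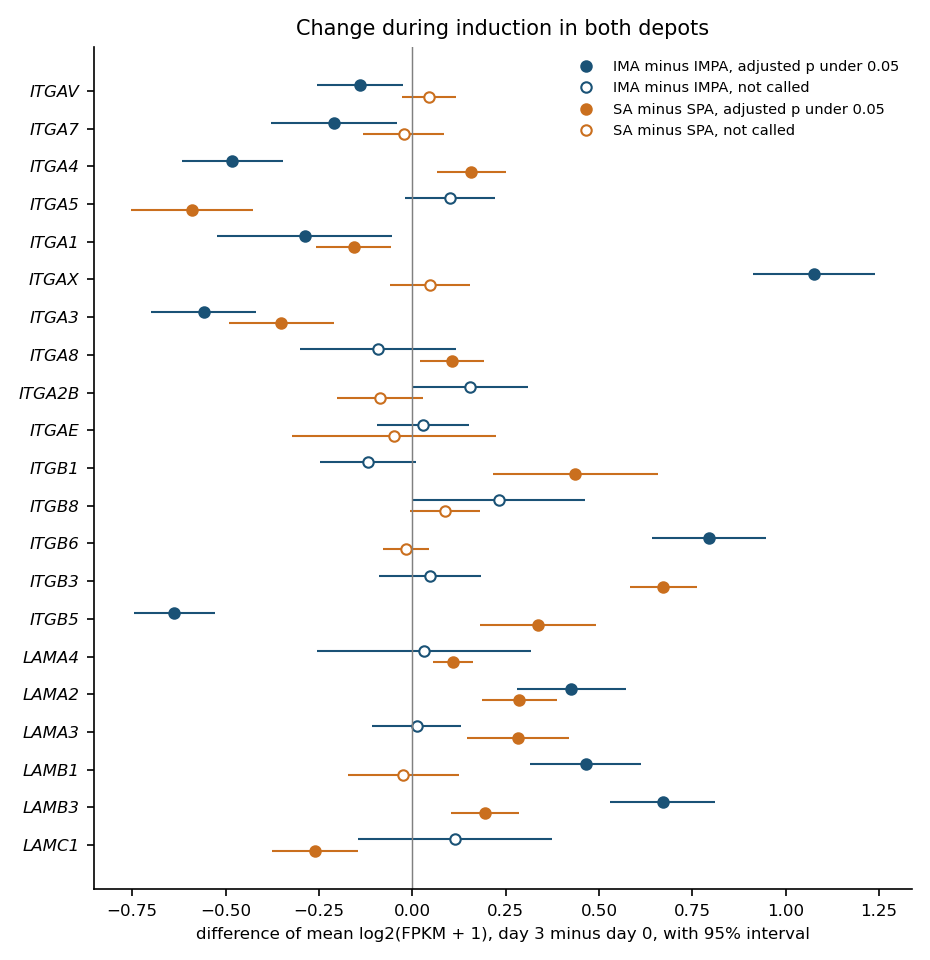
Difference of mean log2(FPKM + 1) between day 3 and day 0 (horizontal axis, with 95% interval) for the 21 genes tested (vertical axis), in intramuscular cells (blue, IMA minus IMPA) and subcutaneous cells (orange, SA minus SPA); filled points have an adjusted p under 0.05. ITGAX and ITGB6 stand out in blue at 1.08 and 0.79, ITGB3 in orange at 0.67, and ITGB5 lies on opposite sides of 0.

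Whether the change during induction differed between the depots was tested with an interaction term fitted to all 20 libraries. It was called for 13 of the 21 genes, where 55.3% of all genes tested were called, 20.7% in the direction of a higher intramuscular change and 34.6% in the other. The change was more positive in intramuscular cells for ITGAX (1.03), ITGB6 (0.81), ITGA5 (0.69), LAMB1 (0.49), LAMB3 (0.48), LAMC1 (0.38) and ITGA2B (0.24). It was more negative there for ITGB5 (-0.97), ITGA4 (-0.64), ITGB3 (-0.62), ITGB1 (-0.56), LAMA3 (-0.27) and ITGAV (-0.18). ITGB6, ITGA4 and LAMB3 lay under 1 FPKM in every subcutaneous library, and LAMA3 in every intramuscular one. In that depot a fold change moves log2(FPKM + 1) less than the same fold change in the other. The part of this in their interaction was not tested. The call of ITGA2B was lost without IMPA replicate 3 or 4, IMA replicate 1, 2 or 5, SPA replicate 1 or 2 or SA replicate 3, and that of LAMC1 without IMPA replicate 3 or SA replicate 3. That of LAMA3 was lost with a pseudocount of 0.1 (adjusted p = 0.421) and with rescaling to a common sum (adjusted p = 0.136). With single transcripts as the unit the calls of LAMA3 and LAMC1 were lost (adjusted p = 0.0657 and 0.0615). The call of ITGAV was lost with rescaling to a common sum, upper-quartile scaling and quantile normalization (adjusted p = 0.0652, 0.105 and 0.0564). ITGA1 and LAMA2 were called without IMA replicate 3, ITGA3 without IMA replicate 1, SPA replicate 4 or SA replicate 3, ITGA7 without SPA replicate 1 and ITGA8 without IMPA replicate 5. ITGA8 was also called with a pseudocount of 0.1 (-0.62, adjusted p = 0.0161, against -0.20 and no call) and with rescaling to a common sum (-0.35, adjusted p = 0.0484), and LAMA2 and ITGA7 with quantile normalization (0.27 and -0.28, adjusted p = 0.0128 and 0.0402). Of the 6 genes called in both stage comparisons, ITGA1 and ITGA3 fell and LAMA2 and LAMB3 rose in both depots, while ITGA4 and ITGB5 fell in intramuscular and rose in subcutaneous cells. Over all genes tested, 3607 were called in both stage comparisons and 56.4% of them in the same direction. The 2 stage comparisons share no library.

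Single transcripts added detail for ITGB1, LAMA4 and ITGA7, genes with several transcripts at a mean of at least 1 FPKM. The split between the transcripts of a gene is an estimate, and it varied between libraries. Among 16706 transcripts tested, the ITGB1 transcript XM_018056844.1 stood at 12.3, 13.7, 12.7, 15.2 and 11.1 FPKM in IMPA and at 37.6, 34.7, 33.1, 40.7 and 36.9 FPKM in IMA (difference 1.43, SE 0.081, adjusted p = 1.48e-06). The main transcript of the gene, XM_018056845.1, went from 416, 339, 423, 358 and 415 FPKM to 326, 327, 358, 324 and 331 FPKM (difference -0.22, SE 0.066, adjusted p = 0.0278). The minor transcript thus rose without overlap while the main one fell with overlapping groups, and the gene sum was not called (difference -0.12, adjusted p = 0.10). The gene sum was called lower when each library was rescaled to a common sum (difference -0.15, adjusted p = 0.0315) or quantile normalized (-0.27, adjusted p = 8.21e-04). ITGB1 is known to have splice forms, among them one made in striated muscle, and which form each transcript encodes was not determined here.

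In the subcutaneous libraries the split between the ITGB1 transcripts varied within groups. The transcript NM_001314156.1 was at 0.950 and 0.685 FPKM in SPA replicates 1 and 2 and at 6.95, 8.38 and 8.67 FPKM in replicates 3, 4 and 5. The first 2 of these libraries also had the highest gene sums in SPA, 293 and 276 FPKM. In SA replicate 1, which had the highest sum in SA (383 FPKM), this transcript was at 0.793 FPKM, against 7.40 to 16.1 FPKM in the other SA libraries.

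LAMA4 in intramuscular cells was not called as a gene. Its transcript XM_018053048.1 rose by 0.62 (adjusted p = 0.0373), but the groups overlapped, at 26.2 to 61.5 FPKM in IMPA and 54.2 to 62.3 FPKM in IMA. The transcript XM_018053049.1 fell by 0.74 without overlap (adjusted p = 0.00556). For ITGA7 the estimated split moved between libraries: XM_018048125.1, at 45.4 to 71.9 FPKM in 8 of the 10 intramuscular libraries, was at 7.65 FPKM in IMPA replicate 5 and 4.74 FPKM in IMA replicate 3. In those same 2 libraries XM_018048123.1 was at 46.1 and 30.9 FPKM, and it was listed at 0 in the other 8. The sums over the gene in these 2 libraries were 106 and 72.5 FPKM, and the gene sums were used above.

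The other 15 of the 36 genes had a mean under 1 FPKM over the 20 libraries, and 11 of them stayed under 1 FPKM in every library. The beta chains ITGB2 and ITGB4, the leukocyte alpha chains ITGAL and ITGAM, LAMA1 and LAMB4 were among these, as were ITGA2, ITGA9, ITGA10 and LAMC3. The 4 that reached 1 FPKM as a group mean were LAMA5, ITGA6, ITGA11 and ITGB7.

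With the filter lowered to a mean of 0.1 FPKM, which admitted 31 of the 36 genes, LAMA5, an alpha chain of widely made basement membrane laminins, was higher in IMPA than in SPA by 1.11 (1.76 ± 0.238 against 0.278 ± 0.0735 FPKM, adjusted p = 6.86e-09). It fell in both depots during induction, by 0.26 and 0.14 with overlapping groups (adjusted p = 0.0141 and 0.0370). ITGA6, a laminin receptor chain, rose from 0.420 ± 0.103 FPKM in IMPA to 1.03 ± 0.121 FPKM in IMA (difference 0.52, adjusted p = 1.95e-05) and was at 0.137 and 0.115 FPKM in SPA and SA. ITGB7, the partner of ITGAE and ITGA4, fell in both depots, by 0.49 and 0.35 (adjusted p = 2.53e-05 and 1.82e-04).

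The other genes of the pathway were read as lists, to be set against all genes tested, of which 19.9% rose and 40.2% fell between IMPA and IMA and 26.1% rose and 26% fell between SPA and SA. Between the depots 42.3% were higher and 32.9% lower in IMPA than in SPA, and 29% were higher and 43.4% lower in IMA than in SA. Of the 28 integrin adaptors and activators tested, 16 fell and 3 rose between IMPA and IMA, and 14 fell and 3 rose between SPA and SA, with median differences of -0.19 and -0.18 against -0.085 and -0.0091 over all genes tested. In intramuscular cells ITGB1BP2, or melusin, a muscle protein that binds the ITGB1 tail, rose from 1.81 to 11.0 FPKM as group means (difference 2.10, adjusted p = 6.22e-09), whereas the scaffold genes TNS3 and BCAR1 fell by 0.73 and 0.63 (adjusted p = 8.37e-07 and 3.64e-06). In subcutaneous cells VCL, ILK and PXN, genes of the focal adhesion plaque, fell by 0.51, 0.54 and 0.87 (adjusted p = 5.03e-08, 2.20e-06 and 3.94e-05). Between IMPA and SPA 11 of the 28 were higher and 8 lower in IMPA, a smaller share than the 75.1% of all genes called, led by FERMT1, an integrin activator, which was 1.67 lower, and LIMS2, a partner of ILK, which was 2.05 higher (adjusted p = 6.60e-11 and 3.16e-10). Between IMA and SA 13 were higher and 8 lower in IMA.

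Of the 9 basement membrane partners of laminin tested, 7 were higher and 2 lower in IMPA than in SPA, and 6 were higher and 2 lower in IMA than in SA, where 75.1% and 72.4% of all genes were called. COL4A1 and COL4A2, chains of collagen IV, were higher in IMPA by 3.56 and 2.27 (adjusted p = 7.75e-14 and 1.98e-12), with COL4A1 at 17.7 against 0.587 FPKM as group means. During induction, when 60.1% and 52.1% of all genes were called in the 2 depots, 6 fell and 2 rose in intramuscular cells, where HSPG2, the gene of perlecan, fell by 1.08 (adjusted p = 2.50e-05). In subcutaneous cells 4 fell and 3 rose, and NID2, a linker of laminin and collagen IV, fell by 0.96 (adjusted p = 5.52e-08).

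Of the 6 laminin receptors tested that are not integrins, 3 were higher and 2 lower in IMPA than in SPA, where 75.1% of all genes were called. Between IMA and SA, where 72.4% were called, 4 were higher and 2 lower in IMA. SDC2, a syndecan, was 2.19 higher in IMPA than in SPA (adjusted p = 4.16e-10), and BCAM, a receptor for laminins with the LAMA5 chain, was 2.06 higher in IMA than in SA (adjusted p = 1.55e-12). During induction 1 rose and 2 fell in intramuscular cells, and 1 rose and 1 fell in subcutaneous cells, in each case a smaller share than the 60.1% and 52.1% of all genes called.

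Of the 20 integrin ligands tested that are not laminins, 12 rose and 2 fell between IMPA and IMA, and 9 rose and 6 fell between SPA and SA, with median differences of 0.23 and 0.20 against -0.085 and -0.0091 over all genes tested. FN1, the gene of fibronectin, rose from 271 to 781 FPKM in intramuscular cells as group means (difference 1.54, adjusted p = 1.52e-07), and POSTN, periostin, rose by 1.03 (adjusted p = 1.36e-08). In subcutaneous cells FBLN5, an RGD protein of elastic fibres, rose by 1.06 and TGFBI fell by 0.84 (adjusted p = 1.69e-08 and 8.83e-08). Between the depots 9 were higher and 7 lower in IMPA than in SPA, where 75.1% of all genes tested were called. In IMA 9 were higher and 8 lower than in SA, where 72.4% were called. CDH1, NPNT and TNC, the gene of tenascin C, were higher in IMA than in SA by 5.03, 3.43 and 4.52 (adjusted p = 1.79e-17, 2.11e-15 and 4.67e-15). CDH1 and NPNT stayed under 1 FPKM in every subcutaneous library and passed the filter only through the intramuscular groups. Their depot difference is thus tied to how they were admitted.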

How the data were processed

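The authors aligned paired reads to the goat genome with HISAT2 2.0.4, and per the labels used StringTie 1.3.1; their deposited mRNA table holds FPKM per transcript and library. It holds no counts, so the reads behind each value are unknown and no counting interval was given. Mapped reads per library are listed with the study and were not used here; they were most numerous, and the mapped share largest, in IMPA. FPKM of all its genes summed to 373889 to 413880 per library, and 15126 to 16961 genes were above 0. The lncRNA tables were not used. No 2 libraries held identical values.

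FPKM was summed per symbol, genes with a mean of at least 1 FPKM were kept, and log2(FPKM + 1) was fitted with limma 3.58.1 in R 4.3.3 (moderated, two-sided, trended variances, Benjamini-Hochberg over all genes tested). Figures used Python 3.11.15 and matplotlib 3.10.9. The fit was tested on simulated data. Each comparison used its own 10 libraries, and the interaction used all 20. The 36 genes were taken by symbol, those with a mean of at least 1 FPKM were described with values, and other pathway genes were named by smallest adjusted p among those called; the single transcripts named were chosen after their values were seen. Of the genes under 1 FPKM, 1 is not reported here. The members and lists were chosen with earlier results of these data known. Alternatives changed the filter, pseudocount, scaling, variance trend, libraries in the fit, replicate block and unit (single transcripts).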

Additional observations from a re-analysis of the deposited data

Results flagged for a closer look

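The change during induction differed between the depots for 13 of the 21 genes tested (limma interaction over 20 libraries, adjusted p under 0.05 by Benjamini-Hochberg), against 55.3% of all genes tested. The difference, intramuscular change minus subcutaneous change on the log2(FPKM + 1) scale, was 1.03 for ITGAX, 0.81 for ITGB6, 0.69 for ITGA5, 0.49 for LAMB1, 0.48 for LAMB3, 0.38 for LAMC1 and 0.24 for ITGA2B. It was -0.97 for ITGB5, -0.64 for ITGA4, -0.62 for ITGB3, -0.56 for ITGB1, -0.27 for LAMA3 and -0.18 for ITGAV. In 1 depot ITGB6, ITGA4, LAMB3 and LAMA3 lay under 1 FPKM in every library, where a fold change moves this scale less.

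One library lay apart from the other 4 of its group, by Dixon's test at the 95% level, in 12 of 84 combinations of gene and group, where chance gives about 1 in 20. IMA replicate 3 accounted for 5 of them. It was high in ITGA1 (4.56 FPKM, next 2.97), ITGA8 (5.19 FPKM, next 4.45), ITGB1 (392 FPKM, next 369) and ITGB6 (43.2 FPKM, next 37.2), and low in ITGB8 (21.1 FPKM, next 27.1). The same library had the lowest adipocyte marker sum of the IMA libraries, 139.9 FPKM against 177 to 201 FPKM in the others, and the highest sums of smooth muscle and pericyte markers, mostly ACTA2 (376 against 273 to 320 FPKM), and endothelial markers, mostly ERG (7.74 against 5.24 to 6.02 FPKM). By the alignment statistics given with the study it also had the largest mapped share in IMA. The part of these in its values was not tested. SPA replicate 1 was high in ITGA7 (0.188 FPKM, next 0.00549) and low in LAMA3 (2.58 FPKM, next 3.23) and LAMB1 (189 FPKM, next 208). IMA replicate 1 was low in ITGAX (3.10 FPKM, next 3.83), SA replicate 1 was high in ITGB1 (383 FPKM, next 323), SPA replicate 4 was high in LAMA2 (2.02 FPKM, next 1.82), and IMA replicate 5 was high in LAMA3 (0.143 FPKM, next 0.0942).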

How the results depend on the processing

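Of 76 called results for single genes, 61 were held under every alternative run and 15 were lost under at least one, while 11 of the 29 not called were called under at least one. No called gene changed sign under another scaling. LAMA4 in SA against SPA turned negative when its most abundant transcript replaced the gene sum (difference -0.055, adjusted p = 0.842), and there the estimated split between transcripts varied between libraries. With a minimum mean of 0.1 FPKM, 17 of the 31 genes then tested were called between IMA and IMPA, in place of 11 of 21, since more genes were tested. Leaving out 1 library at a time gave 8 to 12 genes called for IMA against IMPA, 12 to 13 for SA against SPA, 20 in every case for IMPA against SPA, 18 to 19 for IMA against SA, and 11 to 15 for the interaction. Rescaling each library to a common sum moved the median difference of all genes from -0.085 to -0.12 for IMA against IMPA. After the data were seen, the fits were also run once without IMPA replicates 3 and 5 together. Its values are not reported, since these libraries had been noticed by their low LAMA4 levels, but under it LAMA4 was called lower in IMA than in IMPA, against no call and a difference of the opposite sign with all libraries, and calls of other genes were gained and lost. The replicate numbers were not taken as pairs, since the goat behind each is not named and not every correlation was over 0.1: the correlation of deviations between libraries with the same number was 0.042 to 0.12 for IMA and IMPA, where 3 of 5 correlated best with their own number, and -0.24 to 0.12 for SA and SPA, where 1 of 5 did. With the replicate number as a block, 12 genes were called for IMA against IMPA (7 higher and 5 lower), 12 for SA against SPA, 20 for IMPA against SPA, 18 for IMA against SA and 14 for the interaction. For IMA against IMPA the block added ITGA2B and ITGB8 (adjusted p = 0.0301 and 0.0314) and lost ITGA1 (0.0563); elsewhere it lost ITGA8 in SA against SPA (0.0511) and ITGAX in IMA against SA (0.0602) and added ITGA3 to the interaction (0.0378). The reads behind a gene's value are unknown without counts, and genes at a few hundredths of an FPKM, such as ITGA7 and ITGB6 in the subcutaneous cells, lie close to 0, so that their log2 differences depend on the pseudocount.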
